A study of Canis lupus familiaris with 20 samples.

Results

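CMT-W2 is a canine mammary adenocarcinoma cell line, and its co-culture with canine macrophages is described here from both of the populations sorted out of it. The co-culture was followed on 4 two-colour arrays of the 20 in the series, chosen by their sample titles: 2 arrays of the CMT-W2 cancer cells and 2 of the macrophages, whose titles carry the prefix MQ. CD64+ monocytes sorted from the blood of healthy dogs were layered on cancer cells stained with the dye CMTMR, and after 72 h the cells were trypsinised and sorted into stained cancer cells and unstained macrophages. Each array set the RNA of one sorted population against RNA of the same kind of cell grown alone, as a mono-culture, which was not sorted. The labels name no drug and no engineered gene for either culture. The other 4 co-cultures served as the comparison: P114 came from an anaplastic cancer, CMT-U309 from a spindle-cell tumour, CMT-U27 from a simple carcinoma, and CMT-W1 from a further adenocarcinoma. CMT-W2 is 1 line grown in 1 co-culture, and the number of dogs and of macrophage mono-cultures is not given in the sources used here.

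Macrophages recruited into a mammary tumour and the cancer cells around them exchange chemokines, cytokines and prostaglandins, and each side can change the genes the other expresses. CCL2 is the chemokine that draws monocytes towards a tumour, and TLR2 is a receptor of the innate immune system for microbial lipoproteins, carried on the surface of macrophages. Macrophages also present antigen to T cells through the class II proteins of the major histocompatibility complex (MHC), which in the dog is called DLA.

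All values are log2 ratios of the co-culture over the mono-culture unless a level is named. In a dye-swap pair both arrays carry the same RNAs with the dyes exchanged, so a pair counts as 1 replicate and the difference between its arrays is technical error. A gene is said to have risen or fallen where it changed at least 3-fold in the same direction on both arrays of the pair, and this carries no test. Across genes the arrays of the CMT-W2 pair correlated with r = 0.83 in the cancer cells and 0.91 in the macrophages. Of the spots, 54.6% and 81.2% were well above background in the co-cultured cancer cells and 59.5% and 74.0% in the co-cultured macrophages, and 1438 outlier spots were left out on 1 of the cancer cell arrays against 10 to 14 on the others. Of 43603 probes 1648 had a gene symbol, so most genes that changed have no name here. For 31 of the 169 ratios of named genes the probe was not well above background in one of the cultures. For some of these a fold of at least a given size is stated, which rests on the deposited signals and need not hold under another background correction. None is stated for ADGRE1, ANPEP, CCL7, CD80, CXCL10, IL12A, IL1A, IL2RA, IL33, OAS3 and TLR1 in the cancer cells. The same holds for ABCC5, CD36, FGF5, FZD6 and IL6 in the macrophages, and the ratios of all these genes are limited by background too. With normexp background correction and loess normalization CD163, TLR2 and CD40 had log2 ratios of 3.16, 2.05 and 3.72 in the cancer cells. MMP3 had 3.61 in the macrophages, and each of these was below the fold given. The log2 ratio in the plots is the one measured. The small number of arrays limits the precision.

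The labelled cell types were checked first against marker genes of macrophages, epithelium, lymphocytes and granulocytes. In mono-culture the macrophages had all 9 macrophage markers on the array well above background, with a summed signal of 694824 to 764916, while the CMT-W2 cancer cells had 4 of the 9, with 3176 to 3671. After co-culture the order was turned: the stained cancer cells had 8 of the 9 and a sum of 83581 to 91042, and the unstained macrophages had 8 and a sum of 55820 to 64103. CD163, the haemoglobin scavenger receptor of macrophages, had a level in the co-cultured cancer cells that was 831% of that in the macrophages of the same co-culture, and 3.17% of that in mono-cultured macrophages. Of the 8 markers well above background on both arrays of either co-cultured population, 5 (CD163, FCGR1A, CTSS, CD86 and FCER1G) had the higher level in the stained cells. This number was 9 of 9 in the CMT-U27 co-culture, 2 of 9 with CMT-U309, 2 of 8 with CMT-W1 and 1 of 9 with P114. In CMT-W2 the markers CD80, ADGRE1 and TYROBP had the higher level in the unstained cells, at 352%, 203% and 198% of that in the stained cells. The markers were therefore split between the 2 populations of CMT-W2, and the labels used here are those of the sort. Of 10 epithelial and mammary markers 4 were well above background in the cancer cells of either culture and 3 in the macrophages of either culture, and none rose or fell in either population.

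Genes of the other cell type were also followed in wider sets, chosen only on the mono-cultures of the other 4 lines. The 680 genes that were at least 16-fold higher there in macrophages than in cancer cells had, in the co-cultured CMT-W2 cells, a median level of 16.1% of that in mono-cultured macrophages, against 2.00% in the CMT-W2 mono-culture. Among the co-cultures this median was 72.4% in CMT-U27, 18.3% in CMT-U309, 9.29% in P114 and 4.56% in CMT-W1, so CMT-W2 lay between the others. For these 4 lines, in both sets, the mono-culture levels behind the percentages also served to choose the genes, so the order is a description. In the opposite direction, 311 genes at least 16-fold higher in cancer cells had a median level of 30.2% of the mono-cultured cancer cells in the macrophages sorted from CMT-W2, against 2.98% in the macrophage mono-culture, and 40.9% to 84.6% in the macrophages of the other co-cultures. The part that RNA of the other cell type had in any change below was not tested, and in these bulk samples fewer cells of a type and less RNA per cell cannot be told apart.

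**Figure D1:**
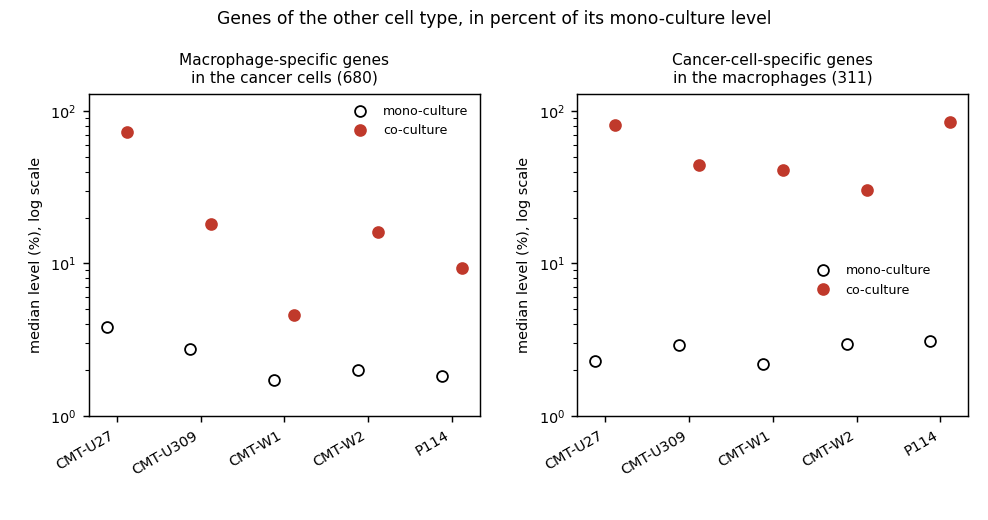
Median level of genes of the other cell type in percent of their level in that cell type's mono-culture, on a log axis, for each of the 5 co-cultures (left, 680 macrophage-specific genes in the cancer cells; right, 311 cancer-cell-specific genes in the macrophages). Open circles are mono-cultures and filled circles co-cultures; for CMT-W2 the medians went from 2.00% to 16.1% in the cancer cells and from 2.98% to 30.2% in the macrophages.

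In the CMT-W2 cancer cells the change was mainly upwards. Of 23353 genes measured, 1230 rose (5.27%) and 386 fell (1.65%); among the 726 with a symbol 110 rose (15.2%) and 13 fell (1.79%). By the same criterion the numbers that changed were 5280 in CMT-U27, 3613 in CMT-U309, 1890 in P114 and 1247 in CMT-W1, so the 1616 of CMT-W2 were the second lowest. With normexp background correction and loess normalization 515 rose and 79 fell, and with normexp and median centring 528 rose and 24 fell, so rises outnumbered falls more than in the deposited ratios. Of 71 members of the gene lists that rose or fell in the cancer cells, 17 had a mean under 3-fold with normexp and loess and 13 with median centring; of 70 in the macrophages these were 22 and 22. The median over all genes, -0.12 in the cancer cells and -0.15 in the macrophages, moved to -0.01 and -0.02 with loess and to 0.06 and 0.05 with median centring.

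CXCL8 and PTGS2 had the highest ratios among the genes with a symbol in the cancer cells. CXCL8, the chemokine of neutrophils, had 8.86 with the co-culture in Cy5 and 8.07 with it in Cy3, a mean of 8.47. PTGS2, the inducible enzyme of prostaglandin synthesis, had 7.38 and 7.95, and PTGES, the next enzyme of that pathway, had 5.00 and 4.79. For CXCL8 and PTGS2 the CMT-W2 values lay inside the range of the other lines (5.23 to 8.93 and 3.95 to 9.95), whereas both PTGES arrays were above all 4 others, which had 3.21 to 3.90. IL1B, a cytokine that starts inflammation, was not well above background in the mono-culture, and its level in the co-culture was at least 31.3-fold higher.

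Among the CC chemokines, 7 of the 11 measured rose in the cancer cells (CCL2, CCL3, CCL4, CCL5, CCL7, CCL8 and CCL20) and none fell, with a list median of 4.64 beside -0.12 over all genes; 15.2% of the genes with a symbol rose. CCL2 had 6.26 and 5.47 on its arrays, both above the other 4 lines, which had 4.31 to 4.83. CCL3, which attracts monocytes and T cells, had 6.31 and 5.69 against 4.18 to 5.74, so that its pair mean was the highest but 1 array was inside their range. Of the 5 CC chemokines measured in all lines, CCL2, CCL3, CCL4, CCL5 and CCL8, all 5 had a pair mean above the range of the other 4; over all genes measured in every line this held for 18.4%. None of these differences passed the test below.

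Set against the levels in macrophages, those in the stained cancer cells differed from gene to gene. In the co-cultured CMT-W2 cells CXCL8 stood at 439% of its level in mono-cultured macrophages and at 651% of its level in the macrophages sorted from the same co-culture. PTGS2 stood at 435% and 1196%, CCL3 at 1888% and 2367%, and CCL2 at 95.4% and 1901%. CSF2, the growth factor GM-CSF, rose by 5.99 and 5.35 and had 376% of the level in the co-cultured macrophages. The cytokines IL1A, IL1B and IL18 stood lower, at 14.6%, 33.4% and 26.5% of their level in mono-cultured macrophages and at 65.6%, 141% and 116% of that in co-cultured ones. Among the receptors FCGR1A, the CD64 by which the monocytes had been sorted, stood at 8.88% and 271%, TLR2 at 5.54% and 111%, C5AR1 at 7.21% and 1311%, and CD40 at 131% and 36.4%. All these percentages are ratios of the normalized signal of 1 probe between arrays.

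The probe of TLR2 was not well above background in the CMT-W2 mono-culture, and its level in the co-cultured cancer cells was at least 17.4-fold higher. Its ratio, 5.67 and 6.64 on the arrays, was 2.05 with normexp and loess and 2.22 with median centring, and its other probe had 2.63, so it cannot be ranked against the 3 other lines measured (4.50 to 5.44). TLR4, the receptor for lipopolysaccharide, had 4.41 and 4.47, above all 4 other lines (2.93 to 3.89). Of the 6 Toll-like receptors measured 3 rose (TLR1, TLR2 and TLR4), beside 15.2% of the genes with a symbol. TLR1 too was not well above background in mono-culture. Its ratio of 4.23 was 1.53 with normexp and loess, under 3-fold, and 1.63 with median centring. TLR5, TLR7 and TLR9, with -0.74, 0.46 and 0.45, neither rose nor fell.

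Of 5 interferon-stimulated genes 4 rose, beside 15.2% of the genes with a symbol. MX1, an antiviral GTPase, had 6.74 and 6.29, both above every other line, which had 3.86 to 5.22. Its difference from the other lines, 2.11 in the deposited ratios, was 1.54 with normexp and loess and 1.11 with median centring. OAS1, OAS2 and OAS3, the oligoadenylate synthetases that sense double-stranded RNA, had means of 4.23, 2.97 and 2.16, and OAS1 and OAS2 lay inside the range of the other lines. OAS3 was not well above background in mono-culture, and with normexp its ratio was 0.52 (loess) and 0.51 (median centring), under 3-fold. The level of MX1 in the stained cells was 98.2% of that in mono-cultured macrophages, and in the macrophages of the co-culture MX1 had a ratio of 0.78.

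All 8 measured macrophage markers rose in the cancer cells, with a median of 5.34, beside 15.2% of the genes with a symbol. With normexp 6 of the 8 had a mean of at least 3-fold: ADGRE1 went from 3.76 to 0.66 (loess) and 0.67 (median centring), and FCER1G from 2.43 to 1.12 and 1.30. CTSS, a cathepsin of antigen-presenting cells, had 7.41 and 6.21. CD163 had a mono-culture level that was not well above background and a co-culture level at least 55.3-fold higher; its second probe had 5.27. All 8 lysosomal genes rose too (median 3.0), from ATP6V0E1, a subunit of the proton pump, at 1.67 to CTSS, which is on both lists. The macrophage-specific genes given above had a median ratio of 3.38 in these cells. Their overlap with these lists was not counted, and a relation between them was not tested.

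Receptors and proteases moved less evenly in the cancer cells. Of 7 chemokine receptors 3 rose, beside 15.2% of the genes with a symbol. None of the 3 was well above background in mono-culture. The levels of ACKR3, a scavenger of the chemokine CXCL12, C5AR1 and CCR1 were at least 16.4-fold, 23.3-fold and 7.90-fold higher. With normexp and median centring ACKR3 had a mean of 1.70 (1.58 with loess, at the 3-fold limit), CCR1 had 1.04, under 3-fold, and C5AR1 had 2.06, against 4.94, 3.67 and 6.06 in the deposited ratios. Of 6 proteases and inhibitors MMP3, MMP9, PLAU and ANPEP rose, beside the same 15.2% (ANPEP had 0.80 with normexp and loess). TIMP1 and TIMP2, inhibitors of such proteases, had 0.80 and 0.98. Of 9 collagens and matrix genes none rose and 1, DCN, fell, where 1.79% of the genes with a symbol fell.

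Of 6 genes induced by hypoxia 2 rose in the cancer cells, beside 15.2% of the genes with a symbol. VEGFA, the vascular growth factor, had 1.91 and 1.89, with 2.76 in CMT-W1 and -0.41 to 0.45 in the other 3 lines. ADM, the vasodilator adrenomedullin, had 2.51 and 2.71 against -1.49 to 1.80. BIRC3, an inhibitor of apoptosis and a target of NF-kB, had 4.42 and 4.26, inside the 1.74 to 4.81 of the 3 others measured. The 2 ribosomal protein genes, RPL27 and RPS18, stayed at 0.10 and 0.12, and none of 6 mesenchymal and cytoskeletal genes rose or fell.

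**Figure D2:**
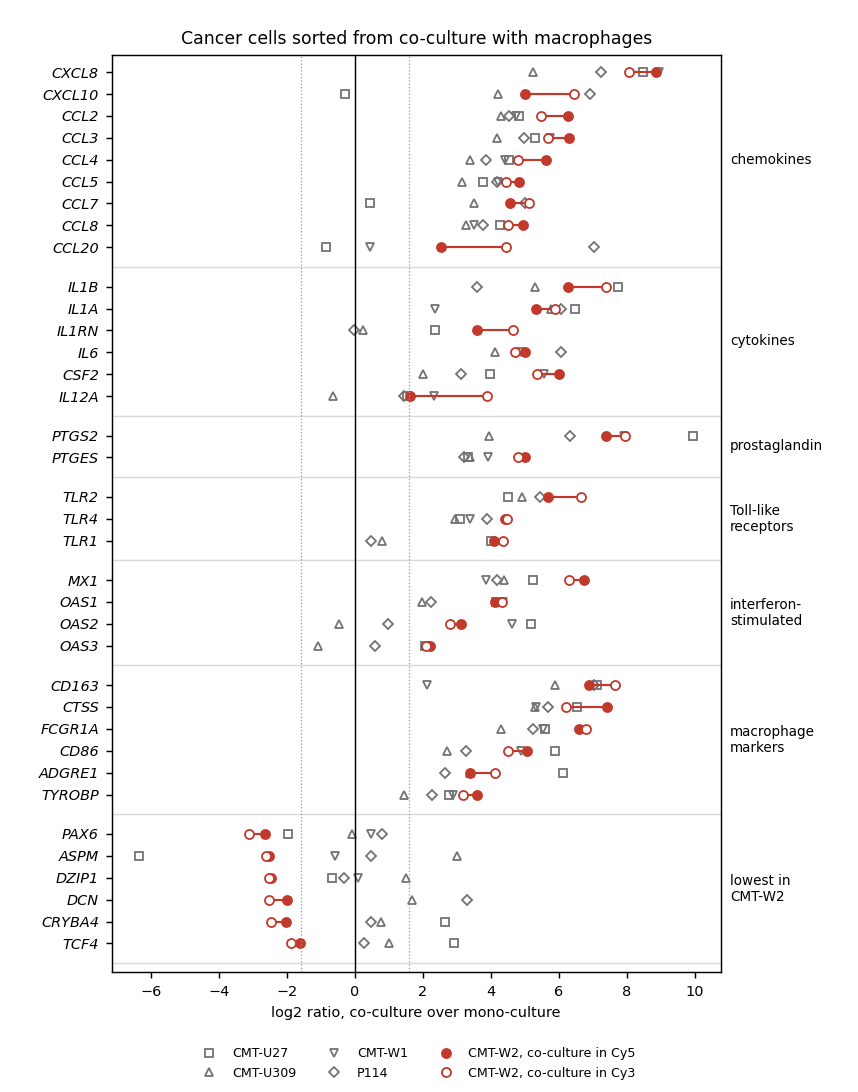
Log2 ratios of co-culture over mono-culture in the cancer cells for named genes, grouped by function. Red circles are the 2 arrays of CMT-W2 joined by a line, grey symbols the pair means of the other lines where measured, and dotted lines mark 3-fold; probes not well above background in one culture are plotted as measured. Both CMT-W2 arrays of CCL2 (6.26 and 5.47) and MX1 (6.74 and 6.29) lie to the right of every other line.

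Only 13 genes with a symbol fell in the CMT-W2 cells. The lowest was PAX6, a homeobox transcription factor, with -2.64 and -3.13, against -1.96 to 0.79 in the other lines. ASPM, a protein of the mitotic spindle pole, had -2.53 and -2.63, inside a wide range from -6.35 in CMT-U27 to 3.01 in CMT-U309. DZIP1, a protein of the base of the cilium, had -2.46 and -2.52, and all other lines were at -0.68 or above. DCN, the matrix proteoglycan decorin, was not well above background in the co-culture, which gives a level at least 2.37-fold lower; CMT-U309 and P114, the other lines in which it was measured, had 1.66 and 3.28. CDC25A, a phosphatase that drives the cell cycle, fell with -1.62 and -2.37, and CCND1, CDKN1B and MYC, the other 3 measured cell cycle genes, did not. With normexp and loess ASPM, DZIP1, DCN and CDC25A had -1.48, -1.31, -0.31 and -0.39, all under 3-fold.

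In the macrophages sorted from CMT-W2 more genes changed, and in both directions. Of 25780 genes measured 3031 rose (11.8%) and 1748 fell (6.78%); with a symbol, 108 of 784 rose (13.8%) and 105 fell (13.4%). The total of 4779 was the lowest of the 5 macrophage populations, whose others had 5458 to 6161. With normexp and loess the total was 2135, and with median centring 1573.

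Genes of myeloid cells were among those with the lowest ratios of the genes with a symbol. The 10 lowest also held ACKR3 (-5.43) and PDPN (-5.18). CD163 had -7.92 and -8.15, C5AR1, the receptor for the complement fragment C5a, -7.28 and -7.73, and S100A8, a calcium-binding protein of myeloid cells, -6.30 and -7.05. CCL13, a monocyte chemokine, was no longer well above background in the co-culture, which gives a level at least 55.0-fold lower. Of the 9 macrophage markers 8 fell (median -4.53), beside 13.4% of the genes with a symbol. CD80, a co-stimulatory ligand for T cells, had -0.82, above the -3.69 to -1.45 of the other co-cultures. Of the 8 lysosomal genes 6 fell (median -2.96), while CTSC and ATP6V0E1 stayed at 0.01 and -0.17.

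CMT-W1, the other adenocarcinoma, had the values nearest to CMT-W2 for several of these falls, a likeness noticed after the values were seen. CCL2 had -4.23 and -4.40 with CMT-W2 and a mean of -5.03 with CMT-W1, against -1.08 with P114, -0.03 with CMT-U27 and 1.11 with CMT-U309. CTSK, a matrix-degrading cathepsin, had a mean of -5.36 with CMT-W2 and -5.73 with CMT-W1, and -2.90 to -0.15 with the others. MMP9, a gelatinase, had -3.92 and -4.10 against -0.84 to 0.94, and SLC11A1, a metal transporter of the phagosome, -5.37 and -6.06 against -1.78 to -0.57. The macrophage arrays may share mono-culture RNA, so the likeness of these co-cultures was not tested.

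TLR2 fell in the macrophages, with -4.29 and -4.35, inside the range of the other co-cultures (-5.17 to -1.70). TLR4 fell as well, with -4.08 and -3.79. TLR1, TLR7 and TLR9 had 0.74, 0.06 and 0.39 with CMT-W2 and below 0 in each of the other co-cultures. Of 12 cytokines measured, 6 fell (IL1A, IL1B, IL1RN, IL10, IL15 and IL18) and 3 rose (IL6, IL12A and CSF2), beside 13.4% and 13.8% of the genes with a symbol. Of these 9, 3 had a mean of at least 3-fold with normexp and loess (IL1A, IL1B and CSF2) and 1 with median centring (CSF2). IL1RN, the natural antagonist of the interleukin 1 receptor, had -2.82 and -2.61, against -3.03 with CMT-W1 and -0.31 to 1.67 with the others.

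MMP3, CAV1 and SERPINH1 were among the genes with high ratios in the macrophages. Of the proteases and inhibitors measured there only MMP3 rose. MMP9 and ANPEP fell, and TIMP1, TIMP2 and PLAU neither rose nor fell. MMP3, a stromelysin that degrades matrix, was not well above background in mono-culture and had a level at least 57.6-fold higher. CAV1, the main protein of caveolae, had 6.54 and 5.46, and SERPINH1, a collagen chaperone, 4.18 and 4.38. The level of CAV1 in these macrophages was 9.04% of that in mono-cultured CMT-W2 cells. The 2 other probes of SERPINH1 had -1.09 and -0.50, so its direction depends on the probe. RPL27 and RPS18, proteins of the cytosolic ribosome, rose with means of 3.19 and 4.06 and reached 139% and 144% of the level in the mono-cultured cancer cells; both were inside the range of the other co-cultures. These rises stand beside the cancer-cell-specific genes described above, whose median ratio in the CMT-W2 macrophages was 3.53.

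Several genes outside the immune lists lay at the edge of the 5 macrophage populations in CMT-W2, with no test passed. Of 8 collagens and matrix genes 3 rose (COL4A4, BGN and SERPINH1), beside 13.8% of the genes with a symbol. Of these 8, all measured in every co-culture, 5 were below the range of the other 4, beside 10.5% of all genes. BGN, the proteoglycan biglycan, was not well above background in mono-culture, with a level at least 2.58-fold higher. With normexp COL4A4 and BGN had means of 0.64 and 0.44 (loess), under 3-fold. HMOX1, the enzyme that degrades haem, fell with -4.84 and -5.09, below the -4.21 to -3.18 of the others. SLC2A1, the glucose transporter GLUT1, had 0.03 and -0.47, and every other co-culture was above 1, up to 1.83. CYBB, the catalytic subunit of the phagocyte oxidase, had 0.84 and 1.15, where all other co-cultures were below 0 (-3.99 to -0.54). BCL2, which protects cells from apoptosis, rose with 3.41 and 3.54, above the 1.55 to 2.80 of the others, and KIT, the receptor for stem cell factor, with 3.62 and 2.29 (0.65 with normexp and loess).

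**Figure D3:**
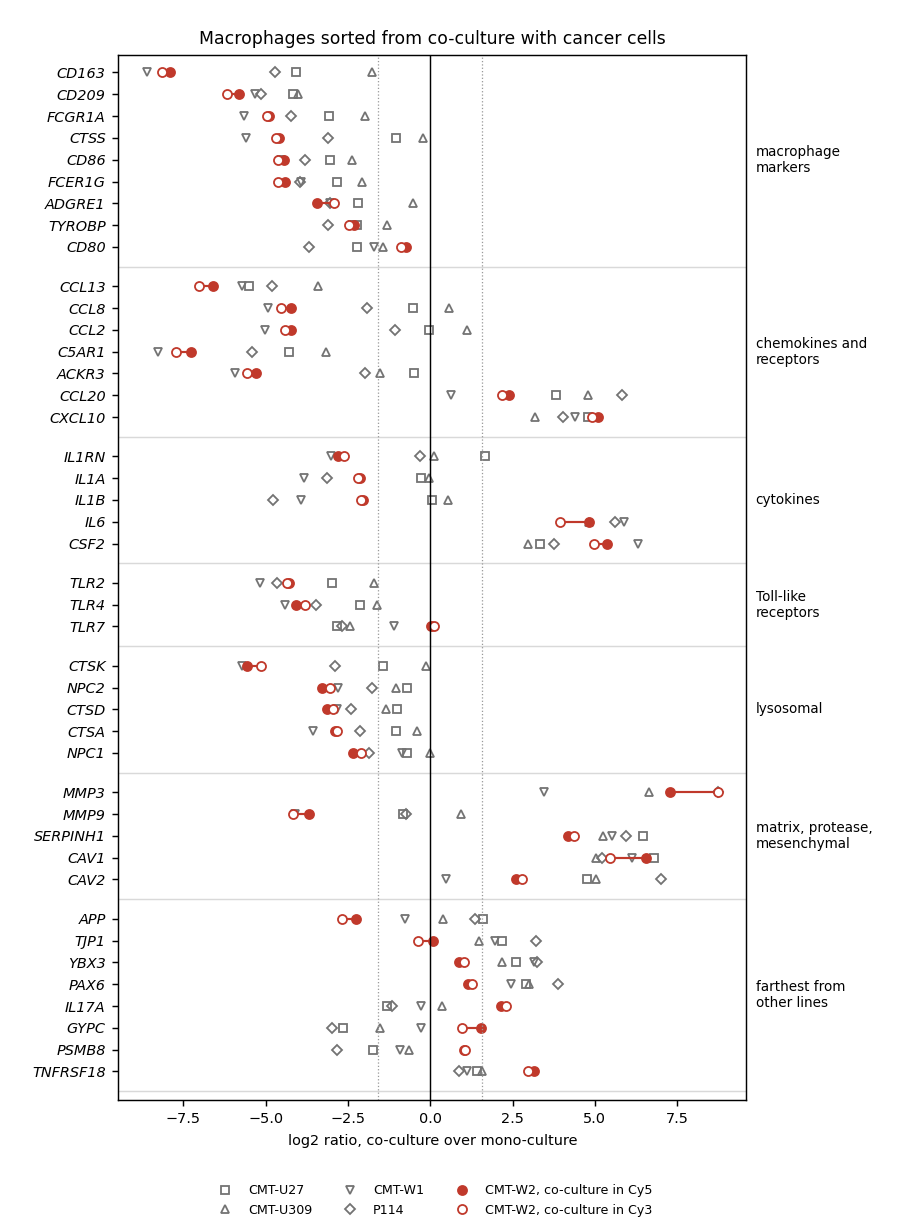
Log2 ratios of co-culture over mono-culture in the macrophages for named genes, grouped by function, with symbols as in the plot of the cancer cells. CMT-W2 and CMT-W1 lie together at the low end for CCL2, CTSK and MMP9, and CMT-W2 lies above the others for IL17A (2.14 and 2.29), GYPC, PSMB8 and TNFRSF18.

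The changes of both populations of CMT-W2 were set side by side. Of 22291 genes measured on all 4 arrays, 253 rose in both populations (1.13%), 359 rose in the cancer cells and fell in the macrophages (1.61%), 111 did the opposite (0.498%) and 26 fell in both (0.117%). Of the 1201 that rose in the cancer cells, 21.1% also rose in the macrophages, where 12% of all 22291 rose, and 29.9% fell, where 6.24% of all fell. Of the 283 that fell in the cancer cells 39.2% rose and 9.19% fell in the macrophages. The genes that rose in both were 9.44% of the 2680 that rose in the macrophages, and those that went up in the cancer cells and down in the macrophages were 25.8% of the 1390 that fell there. Of those with a symbol, 44 rose in the cancer cells and fell in the macrophages, among them CCL2, CCL8, TLR2, TLR4, IL1B, MMP9, CD163, CD86 and CTSS. ASPM and TCF4 fell in the cancer cells and rose in the macrophages, though the second probe of TCF4 had -2.67 in the macrophages. SULT1A1, a sulfotransferase, was the only symbol that fell in both. Across these 22291 genes the correlation of the mean ratios was -0.10, given as a description, since genes are not independent.

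**Figure D4:**
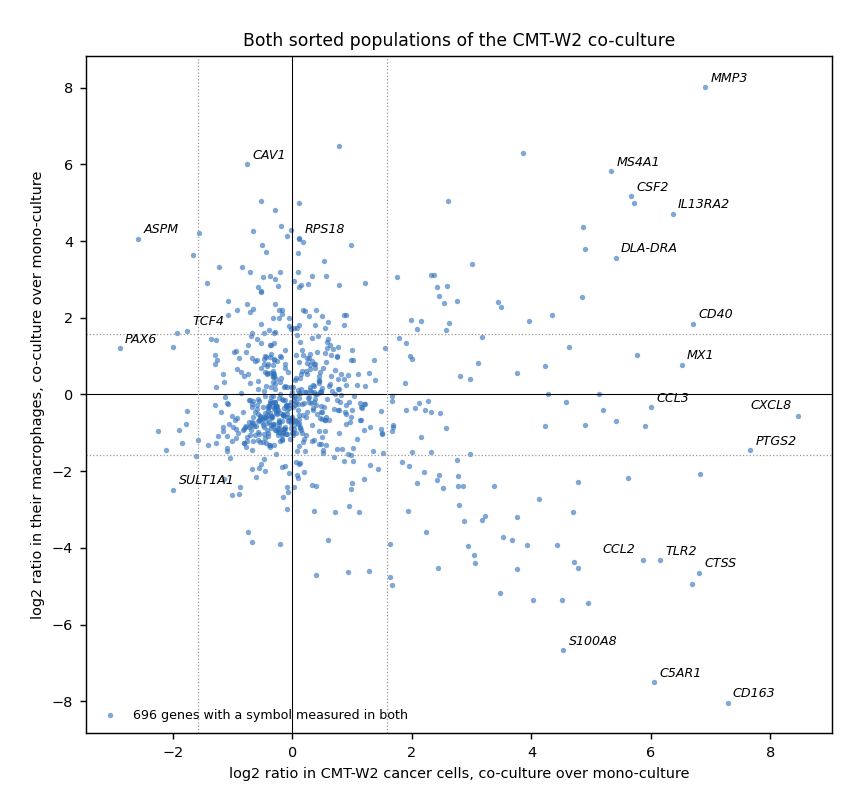
Mean log2 ratio in the CMT-W2 cancer cells (x axis) against that in the macrophages of the same co-culture (y axis) for the 696 genes with a symbol measured in both; dotted lines mark 3-fold. CD163, C5AR1, CTSS, TLR2 and CCL2 lie at the lower right, MMP3, MS4A1 and CSF2 at the upper right.

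The 23 symbols that rose in both populations included 5 genes of MHC and antigen presentation. DLA-DRA, the alpha chain of the class II protein DR, had 5.63 and 5.19 in the cancer cells and 3.44 and 3.69 in the macrophages. DLA-DQB1 had means of 4.90 and 3.80, HLA-DRB1 3.43 and 2.41, and DLA-DQA1 2.53 and 2.40, in the cancer cells and the macrophages in turn. In the other co-cultures the class II genes moved unevenly in the macrophages: DLA-DRA had 2.47 with CMT-U27, 1.55 with CMT-W1, 0.28 with CMT-U309 and -2.26 with P114. Both arrays of CMT-W2 were above all of these for DLA-DRA, DLA-DQB1 and DLA-DOB, a regulator of class II loading that had 3.31 and 2.89.

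The class I genes DLA88 and DLA-64 rose in the cancer cells, with means of 4.57 and 4.28, and stayed at -0.20 and 0.00 in the macrophages. PSMB8 and PSMB9, subunits of the immunoproteasome that cuts peptides for class I, had 1.04 and 0.57 in the macrophages; in the cancer cells PSMB9 had 3.76 and PSMB8, not well above background in mono-culture, a level at least 54.3-fold higher. PSMB8 was at -2.83 to -0.65 in the macrophages of the other co-cultures. In the whole list 10 of 12 measured members rose in the cancer cells and 6 of 12 in the macrophages, and none fell. With normexp and loess 8 of the 10 had a mean of at least 3-fold, DLA-DQA1 (1.44) and DLA-DMA (1.57) being under it. With median centring all 10 did, and in the macrophages all 6 did under either setting. Among the genes with a symbol 15.2% and 13.8% rose. In the deposited ratios CMT-W2 was above the range of the other co-cultures for 8 of 11 members and for 6 of 12. Over all genes measured in every co-culture, the share above that range was 18.4% in the cancer cells and 17.5% in the macrophages. These DLA genes are close relatives, and probes of 1 gene may detect others.

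MS4A1, the B cell antigen CD20, rose in both populations. In the cancer cells it was not well above background in mono-culture and its level in the co-culture was at least 9.01-fold higher, but with normexp the ratio was 1.48 (loess) and 1.56 (median centring), under 3-fold. In the macrophages 1 of the 2 mono-culture signals was above background, and the ratio was 6.06 and 5.60 on the arrays and 3.53 and 3.87 with normexp. In the cancer cells of the other lines it was not measured, and in their macrophages it had 5.07 with CMT-W1, 1.72 with CMT-U309, 0.24 with P114 and -0.25 with CMT-U27. CD40, a co-stimulatory receptor of B cells, macrophages and dendritic cells, had a level at least 102-fold higher in the co-cultured cancer cells and ratios of 1.77 and 1.92 in the macrophages. Its second probe had 2.27 in the cancer cells.

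Other lymphocyte markers did not move as a group. Of the 9 measured in the macrophages, CTLA4, an inhibitory receptor of T cells, rose with 2.30 and 2.10, CD4 fell with -2.02 and -2.0 (both genes were under 3-fold with normexp), and CD8A, CD28, IL2RA, IL2RG, PRF1 and ICOS lay between -0.66 and 1.52. The summed signal of the 9 lymphocyte markers other than MS4A1 was 3281 to 3440 in the macrophages in mono-culture and 3242 to 3594 in co-culture, and in the cancer cells 1657 to 1881 and 1787 to 2204. Among the genes that rose in both populations, the level in the co-cultured cancer cells was a similar fraction of that in the co-cultured macrophages for several immune genes, picked out after their values were seen: it was 14.2% of the level of the macrophages for MS4A1, 13.1% for CXCL10, 11.2% for DLA-DRA, 14.0% for DLA-DQB1, 11.7% for HLA-DRB1 and 9.84% for DLA-DQA1. Other genes that rose in both had other fractions: 21.0% for BIRC3, 36.4% for CD40, 87.8% for IL12A and 99.5% for DLA-79, a class I-like gene. The fraction was above 100% for CCL20 (210%), IL6 (253%), IL13RA2 (345%), CSF2 (376%), CCL7 (508%), ABCC5 (590%), MMP3 (777%) and ADM (947%).

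**Figure D5:**
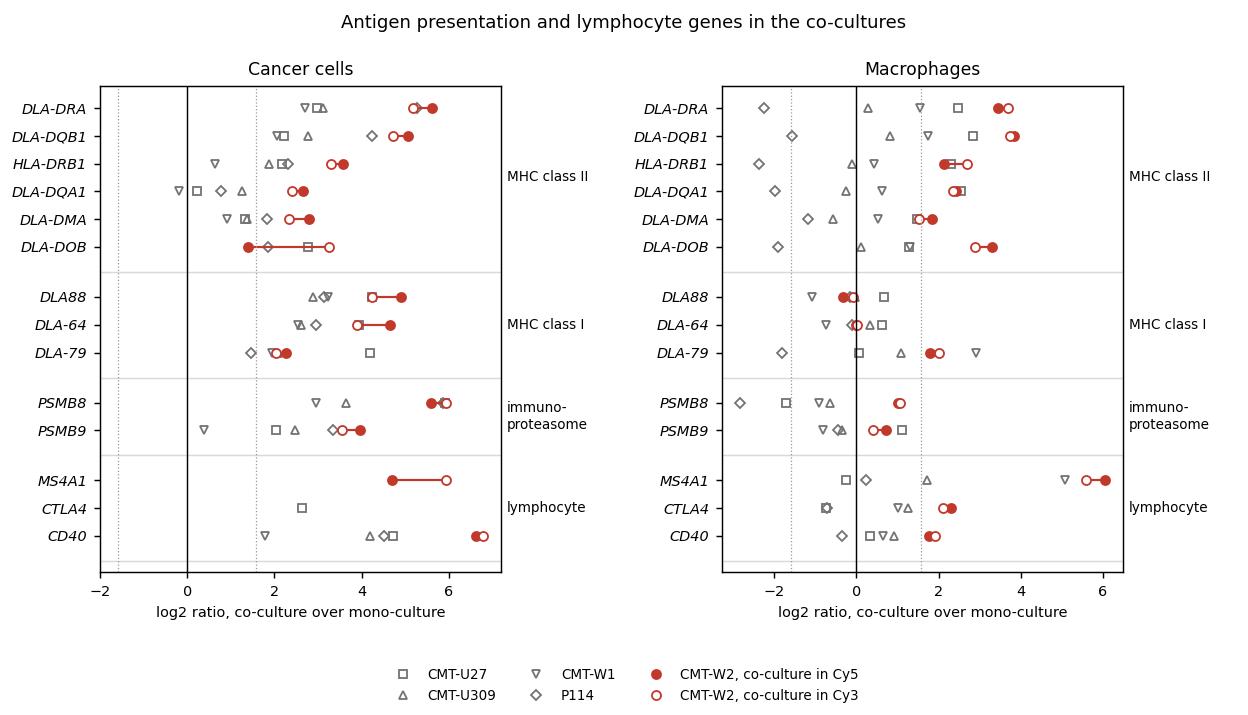
Log2 ratios of MHC, immunoproteasome and lymphocyte genes in the cancer cells (left) and macrophages (right), with symbols as in the plot of the cancer cells. In the macrophages both CMT-W2 arrays of DLA-DRA (3.44 and 3.69), DLA-DOB (3.31 and 2.89), PSMB8 and MS4A1 lie to the right of the other co-cultures.

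What sets CMT-W2 apart from the other co-cultures was tested with limma, as 1 pair against 4, with the spread taken from the other lines. In the cancer cells 0 of 22632 genes passed an adjusted p of 0.05 (0%) and 637 had an unadjusted p under 0.05 (2.81%). In the macrophages 0 of 25120 passed (0%), with 545 at an unadjusted p under 0.05 (2.17%). The unpaired t-test named in the methods, adjusted in the same way, also gave 0 and 0, with 727 and 620 genes at an unadjusted p under 0.05. The interaction, which asks whether the distance of CMT-W2 from the others differs between the populations, passed for 0 of 21938 genes, with 345 at an unadjusted p under 0.05. CMT-W2 shared its slide with CMT-U309 in both populations, and with the slide as a block, where CMT-W2 is compared with CMT-U309 alone, 0 genes passed in limma as well, with 963 of 15564 and 377 of 22793 at an unadjusted p under 0.05. The genes named next had the lowest unadjusted p from limma in each direction among the genes with a symbol, and did not pass. Genes without a symbol were tested but not ranked here.

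In the cancer cells those higher in CMT-W2 were MX1, with a difference of 2.11 ± 0.68 (SE, unadjusted p = 0.0193), DLA-DQA1, IL1RN, CRYBA1 and IL13RA2. IL13RA2, the decoy receptor for interleukin 13, was not well above background in mono-culture and had a level at least 20.9-fold higher in the co-culture. IL1RN was dim in mono-culture too (at least 4.43-fold higher), and its difference from the other lines, 3.26, was 0.15 with normexp and loess and -0.30 with median centring. CRYBA1, a crystallin of the lens, had 1.86 and 2.39 against -1.23 to 0.47. Those lower in CMT-W2 were DCN, with a difference of -4.74 ± 0.95 (limma, unadjusted p = 0.00574), CRYBA4, SLC1A3, DZIP1 and TCF4. The difference of DCN, which was at background in the co-culture, moved to -1.47 with normexp and loess (limma, unadjusted p = 0.0694) and to -2.22 with median centring (unadjusted p = 0.104). SLC1A3, a glutamate transporter, had -0.51 and -0.83 and was above 1 in the 3 other lines measured. Under both normexp settings 3 of the 10 (CRYBA1, IL13RA2 and TCF4) kept an unadjusted p under 0.05, and for all of these genes limma's adjusted p was 0.998.

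In the macrophages IL17A, the signature cytokine of Th17 cells, had the lowest p among the genes with a symbol that were higher with CMT-W2. Its arrays had 2.14 and 2.29, and the other co-cultures -1.31 to 0.35, a difference of 2.82 ± 0.81 (SE, unadjusted p = 0.00944). GYPC, a glycophorin of the red cell membrane, had 1.54 and 0.98 against -2.99 to -0.30. TNFRSF18, the co-stimulatory receptor GITR of T cells, had 3.14 and 2.98 against 0.87 to 1.56, and TLR7 and PSMB8 completed the 5. Lower with CMT-W2 were PGR, APP, TJP1, YBX3 and PAX6. PGR, the progesterone receptor, had 0.88 and -0.23 and was measured elsewhere with CMT-U309 (3.21) and P114 (3.05) alone. APP, the amyloid precursor protein, had -2.25 and -2.69 and a mean of -0.76 to 1.61 elsewhere, and TJP1, a protein of tight junctions, had 0.09 and -0.36 against 1.49 to 3.21. PAX6 and YBX3 had lower ratios with CMT-W2 (1.21 and 0.95) than in any other co-culture (at least 2.45 and 2.17), but the 2 other probes of YBX3 had -1.05 and -0.41. Under both normexp settings 7 of the 10 kept an unadjusted p under 0.05, PGR, PSMB8 and PAX6 being the exceptions. In every case the adjusted p from limma rounded to 1.00.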

How the data were processed

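RNA of sorted, co-cultured cells and of mono-cultured cells was hybridised on 20 two-colour Agilent canine arrays. The authors deposited scanner output of Agilent Feature Extraction (10.7.3.1), whose intensity columns hold spot signals on a linear scale and whose deposited log10 ratio is Cy5 over Cy3 after background correction and dye normalization. A deposited value table repeats that log10 ratio, up to sign, within 5e-06. Other deposited columns score spots as well above background, saturated or outlying. Symbols came from a RefSeq table of the assembly UU_Cfam_GSD_1.0 by accession, and 38230 genes or unnamed transcripts were left.

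Each ratio was expressed as co-culture over mono-culture in log2 units, and the mean of the dye-swap pair was taken. Outlier spots were left out, and a pair was used where the probe was well above background in either culture on both arrays. The brightest probe stood for a gene. In the labels the paired arrays are biological replicates, whereas the paper's methods describe a dye-swap, which was followed. limma (version 3.58.1, R 4.3.3) compared CMT-W2 with the other 4 pairs where at least 2 of them were measured, with Benjamini-Hochberg adjustment over all genes. Levels per channel were the processed intensity after Aquantile normalization, with no floor. A fold of "at least" sets the bright group against the dimmest signal well above background, or against the measured signal of the dim group where that was higher. It was taken from these levels alone, not from normexp. Python 3.11.15 with pandas 2.3.3, numpy 2.4.6 and matplotlib was used. The fits were tested on simulated data.

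Only genes with a symbol are named. They are CCL2 and TLR2, the 10 highest and 10 lowest ratios among those changed at least 3-fold, and list members changed at least 3-fold. The 5 genes with a symbol that had the lowest unadjusted p in each direction are named too. The value in the other population, and of unchanged list members, is given beside them. The members and lists were chosen with earlier results of these data known. Of 103 ratios of named genes, over both populations, with a further measured probe, 9 had a probe of the opposite sign, among them SERPINH1, YBX3 and TCF4 in the macrophages. Alternatives were normexp (offset 50) with loess or median centring, the value table, no filter, outlier spots kept, every probe, 1 dye orientation, the replicate block, 1 fit over both populations, the line or the slide as a block, the methods' t-test, each other line left out, 2-fold, and the mean of the pair. The arrays of the same number share a number, not a sample: their deviations from the pair means correlated with r = 0.25 to 0.39 between CMT-W2 and the other lines in the cancer cells and -0.45 to 0.57 in the macrophages. Array 1 had the co-culture in Cy3 in every cancer cell pair. In the macrophages it had Cy5, except with CMT-U27, where it had Cy3 and r was -0.45. Within a population the number and the replicate block therefore follow the dye orientation, apart from that CMT-U27 pair. Some genes are not reported here and were left out of the named genes and lists.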

Additional observations from a re-analysis of the deposited data

Results flagged for a closer look

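Across the 5 co-cultures, 160 values of named genes with 4 or 5 measured co-cultures were searched for one that stands apart by Dixon's ratio, which chance alone marks in about 1 of 20 groups; 3 did, and 0 of these were CMT-W2. All were in the cancer cells: CD163 was low in CMT-W1, with 2.11, IL1A was low in CMT-W1, with 2.36, and DLA-79 was high in CMT-U27, with 4.20.

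Genes that went in opposite directions in the cancer cells and the macrophages of CMT-W2 on all 4 arrays were listed too; with 1 pair in each population the difference was not tested. Of 22291 genes measured on all 4 arrays, 359 (1.61%) rose in the cancer cells and fell in the macrophages and 111 (0.498%) did the opposite. Among the 696 genes with a symbol measured in both populations, 44 were of the first kind. By list, the first kind held 7 macrophage markers (CD163, ADGRE1, FCGR1A, CTSS, CD86, TYROBP and FCER1G) and 6 lysosomal genes (CTSA, CTSD, CTSK, CTSS, NPC1 and NPC2). It held 3 chemokine receptors (CCR1, ACKR3 and C5AR1) and 4 cytokines (IL1A, IL1B, IL1RN and IL18). It held 2 CC chemokines (CCL2 and CCL8), 2 Toll-like receptors (TLR2 and TLR4) and 2 proteases (MMP9 and ANPEP). Of the granulocyte and stress lists it held 1 gene each (S100A8 and CASP4). The lists were not tested, and a list with 1 or 2 such genes is not said to stand out.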

How the results depend on the processing

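The number of genes that passed the test of CMT-W2 against the other co-cultures was 0 in the cancer cells, the macrophages and the interaction under every alternative run, and ranged from 0 to 0 when each other line was left out; a test of 1 pair against 4 has little power, so this says nothing of stability. Unadjusted p under 0.05 was found for 382 (without P114) to 1198 (without CMT-W1) genes in the cancer cells and 281 (without CMT-U27) to 2797 (without CMT-W1) in the macrophages, beside 637 and 545. With both arrays of each pair and the replicate block, which treats the pairing by a shared number, 0 genes passed in each of the 3 tests (721, 672 and 473 at an unadjusted p under 0.05). The number changed at least 3-fold on both arrays, 1616 in the cancer cells and 4779 in the macrophages, became 594 and 2135 with normexp and loess, 552 and 1573 with normexp and median centring, and 3491 and 8531 at 2-fold. These normalizations moved the median of all genes in the cancer cells from -0.12 to -0.01 and 0.06. Of the 169 ratios of named genes 168 kept their direction under each, at a median of 0.72 and 0.71 of their size. Those that turned were TJP1 in the macrophages (0.0093 with normexp and loess, 0.30 with median centring and 0.089 with the co-culture in Cy5 alone) and PGR there (-0.23 with the co-culture in Cy3 alone); the difference of IL1RN from the other lines, 3.26, was 0.15 with loess and turned to -0.30 with median centring. The cause was not tested. Signal over background limits 31 of these ratios. For some of them a fold of at least a given size is stated, in place of the ratio or beside it. That fold rests on the deposited signals and need not hold with normexp.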
